A study of Mus musculus with 8 samples.

Results

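The miR-15 family was followed through 5 real-time PCR assays, mmu-miR-15a, mmu-miR-15b, mmu-miR-16, mmu-miR-195 and mmu-miR-497, chosen by name from 750 miRNA assays, with the passenger-arm assays left out. They were run on CD34+/CD105- cells that had been sorted after collagenase digestion of renal arteries, in 4 samples of mice after bilateral clamping of the renal arteries and reperfusion (ischemia/reperfusion mice 1 to 4) and in 4 samples of mice after sham surgery (sham mice 1 to 4). CD34 marks endothelial and progenitor cells, and CD105 (endoglin), absent from the gate, marks endothelial and mesenchymal stromal cells. The labels number the mice. The sources used here state no strain, age, clamp time or reperfusion time. The question was whether the family differed between the cells of injured and sham mice.

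A mature miRNA guides Argonaute proteins to messenger RNAs that pair with its seed, bases 2 to 8 from the 5′ end, and miRNAs with the same seed can share targets. The miR-15 family is known for restraining the cell cycle through cyclins and cyclin-dependent kinases and for repressing the survival gene Bcl2, and in humans MIR15A and MIR16-1 are deleted in many chronic lymphocytic leukaemias. In endothelial cells miR-16 and its relatives are known regulators of vascular endothelial growth factor and its receptors. Family members are transcribed in pairs, so that assays of one pair read products of a shared primary transcript.

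The mature sequences of the 5 assays' miRNAs, from RefSeq on GRCm38.p6, are shown because they define the family, with the seed in capitals.
miR-15a: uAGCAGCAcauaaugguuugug
miR-15b: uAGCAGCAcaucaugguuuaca
miR-16: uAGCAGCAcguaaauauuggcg
miR-195: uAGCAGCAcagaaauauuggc
miR-497: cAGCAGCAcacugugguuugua
RefSeq names the last pair miR-195a-5p and miR-497a-5p. All 5 carry the seed AGCAGCA, which 10 of the 1679 mature mouse names in the RefSeq table share, and all 5 are identical over 8 bases from position 2. Counted from 1 at the 5′ end, miR-195 differs from miR-16 in its 21 bases only by G10A and U11G (miR-16 base first). miR-15b differs from miR-15a by A12C, G20A, U21C and G22A (miR-15a base first). miR-497 shares 11 of 22 positions with miR-16 and 17 of 22 with miR-15a. Whether an assay also reads a relative was not tested.

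The 5 members come from 3 clusters. miR-15a (chr14:61632075-61632096, minus strand) lies with a copy of miR-16 (chr14:61631936-61631957, minus strand) inside the long noncoding RNA gene Dleu2, and 54 bases separate the genes Mir15a and Mir16-1. miR-15b (chr3:69009775-69009796, plus strand) lies with the other copy of miR-16 (chr3:69009918-69009939, plus strand) inside Smc4, a condensin subunit gene, and 66 bases separate Mir15b and Mir16-2. Both copies give the same mature miR-16, so its assay cannot say which was used. miR-497 (chr11:70234730-70234751, plus strand) and miR-195 (chr11:70235062-70235082, plus strand) lie in no annotated protein-coding or long noncoding gene of that table, with 241 bases between Mir497 and Mir195a.

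The readout was the threshold cycle (Ct): the more RNA in a well, the lower its Ct. An assay counted as detected below Ct 35, which 82 to 98 miRNA assays did in ischemia/reperfusion samples and 75 to 163 in sham samples, with the lowest number in sham mouse 2. The authors' delta Ct is the Ct minus a reference Ct of the same sample, and its sign is turned here, so that minus delta Ct is a log2 level on which higher means more RNA. No source used here names the reference RNA, and its Ct averaged 21.4 ± 0.804 in ischemia/reperfusion and 20.01 ± 1.97 in sham samples (SD, n = 4 each). Only miRNAs were measured, so the CD34 and CD105 labels could not be checked on their own transcripts. The endothelial miR-126-3p and miR-126-5p were detected in all 8 samples, with log2 differences (ischemia/reperfusion minus sham) of -1.59 ± 0.57 and 0.11 ± 0.60 (SE). The erythroid markers miR-451, miR-144 and miR-486 had no Ct in any sample. Of leukocyte markers, 3 to 4 of 6 assays were detected in each ischemia/reperfusion sample and 3 to 5 in each sham sample. Their summed level, as 2 to the power of minus delta Ct, was 0.00183 to 0.0598 in ischemia/reperfusion and 0.00234 to 0.0219 in sham samples. The 3 tested leukocyte assays had log2 differences of 1.15 ± 1.13 (hsa-miR-223), 0.63 ± 1.00 (mmu-miR-223) and -1.62 ± 2.00 (miR-150). The tested markers of mesenchymal cells (3 of 3 assays) and smooth muscle cells (1 of 3) had lower means after ischemia/reperfusion. So did 49 of all 72 tested miRNAs (68.1%), miR-16 and miR-195 among them. Of the mesenchymal miRNAs, miR-214 was read by both an mmu and an hsa assay. All 3 mesenchymal assays were lower, with a median log2 difference of -2.65, at -3.95 ± 1.17 for mmu-miR-214, -2.65 ± 0.92 for miR-199a-3p and -0.86 ± 0.87 for hsa-miR-214. The mmu-miR-214 value leaves out sham mouse 2, where that assay had no Ct and hsa-miR-214 had its latest Ct, 30.9. The summed level of the mesenchymal assays was 0.00936 to 0.0229 in ischemia/reperfusion and 0.00466 to 0.0591 in sham samples. The smooth muscle miR-145 was at -2.09 ± 0.84, and the summed level of its list was 0.000254 to 0.000684 in ischemia/reperfusion and 0.000309 to 0.00300 in sham samples. By limma, 4 of the tested assays of these lists, miR-126-3p among them, had an unadjusted p under 0.05 and 0 an adjusted one. Over all 72 tested miRNAs, 10 (13.9%) had such an unadjusted p. The part of these markers in the members' differences was not tested. In bulk samples, fewer cells of a type and less RNA per cell cannot be told apart.

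At the Ct 35 limit the family split into members detected in every sample and members that were often not detected. miR-16, miR-195 and miR-497 were detected in 8 of 8 samples, while miR-15b was detected in 1 of 4 ischemia/reperfusion and 3 of 4 sham mice, and miR-15a in 0 of 4 and 2 of 4. miR-497 came close to that limit, with Ct up to 34.1 in ischemia/reperfusion and 34.0 in sham samples. After ischemia/reperfusion, miR-16 and miR-195 had lower mean levels and miR-497 a higher one against the deposited reference, and none of these differences passed the test. Of the 72 miRNAs tested (Ct below 35 in 3 or more of the 4 mice in each group), limma with Benjamini-Hochberg adjustment called 0, or 0% of tested miRNAs, at 0.05, among them 0 of the 3 tested members. At an unadjusted limma p under 0.05 it gave 10 miRNAs, or 13.9%, and 0 members. Of the 3 tested members, 2 had lower means, with a median log2 difference of -1.24, beside 49 of all 72 miRNAs (68.1%) and a median of -0.80.

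**Figure D1:**
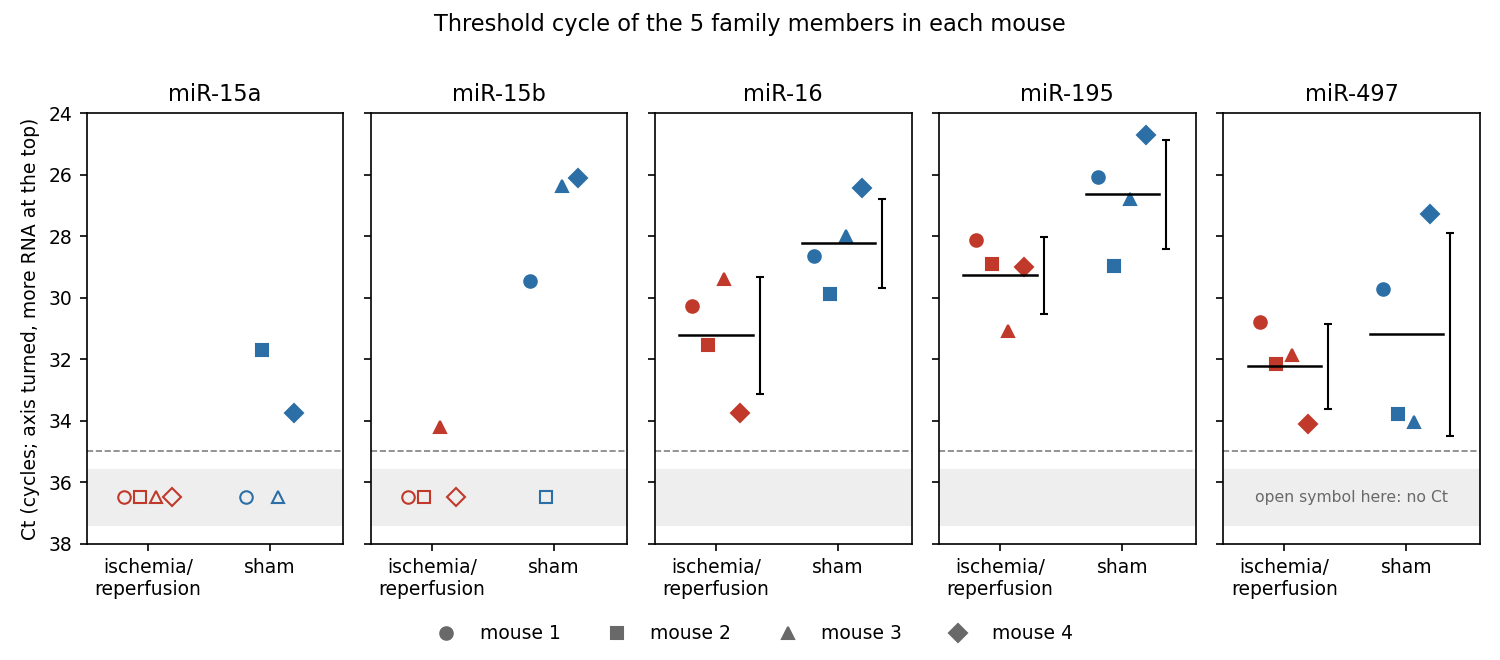
Threshold cycle (Ct, in cycles, with the axis turned so that more RNA is at the top) of the 5 members in each mouse, ischemia/reperfusion in red on the left and sham in blue on the right; bars are means and SD of 4 mice, the dashed line is Ct 35, and open symbols in the grey band are wells with no Ct. miR-15b has a Ct in 1 ischemia/reperfusion mouse and 3 sham mice, while miR-16, miR-195 and miR-497 have one in all 8.

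miR-15b, the partner of miR-16 in the Smc4 cluster, was detected in some but not all mice of each group. Its Ct was 34.2 in ischemia/reperfusion mouse 3, with no Ct in mice 1, 2 and 4, against 29.5, 26.4 and 26.1 in sham mice 1, 3 and 4, with no Ct in sham mouse 2. The single ischemia/reperfusion value was thus later than every sham value, while sham mouse 2 resembled the injured mice in giving none. On the minus delta Ct scale the values were -13.67 in ischemia/reperfusion mouse 3 and -8.82, -7.38 and -8.18 in sham mice 1, 3 and 4. The authors' deposited table gives miR-15b a fold of 0.0214, ischemia/reperfusion over sham, which rests on that single ischemia/reperfusion well. Detection in 1 of 4 against 3 of 4 mice gave a two-sided Fisher's exact p of 0.486 (adjusted p = 1 over 133 assays). With 4 against 4 mice only complete separation can pass that test, and it gave 0 of the 133 assays (0%) at an unadjusted p under 0.05. Detection in at most 1 ischemia/reperfusion mouse and at least 3 sham mice was seen in 25 of 750 assays (3.33%), and the reverse in 2 (0.267%). Only the 133 assays detected in some but not all samples could show either pattern.

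The ischemia/reperfusion mice had 82 to 98 detected assays, against 127, 142 and 163 in the 3 sham mice with a miR-15b Ct and 75 in sham mouse 2. Of 8 assays for epithelial and kidney tubule markers, 0 to 1 were detected per ischemia/reperfusion sample and 0 to 3 per sham sample, and their summed level was 0 to 0.0571 in ischemia/reperfusion and 0 to 0.363 in sham samples. The tubule marker miR-194 had no Ct in any ischemia/reperfusion mouse, against 20.5 and 23.7 in sham mice 3 and 4, and miR-192 had a Ct only in sham mouse 4, at 29.8. Sham mice 3 and 4 were also the samples with the earliest miR-15b Ct. The epithelial miR-200b, miR-200c and miR-429 had no Ct in any sample, while miR-203 was detected in ischemia/reperfusion mice 2 and 3 and in sham mice 1, 3 and 4. The part of these and of the number of detected assays in the miR-15b pattern was not tested.

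Setting every well not detected to Ct 35 gave miR-15b a value in all 8 samples and a log2 difference of -4.17. It entered that setting through the sham group alone, so a lower value was favoured by the filter and no test is read from it. In that setting 21 of 114 miRNAs (18.4%) had an unadjusted limma p under 0.05, 1 (0.877%) an adjusted one, and 84 (73.7%) a lower mean. Without sham mouse 2 as well, a choice made after the data were seen, the log2 difference was -5.28, and 6 of 114 miRNAs (5.26%) had an adjusted limma p under 0.05, from which nothing is read about miR-15b. That mouse is the sham sample in which miR-15b was not detected, so leaving it out enlarges the difference by construction.

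miR-15a, the partner of miR-16 in the Dleu2 cluster, was the least detected member. It had no Ct in ischemia/reperfusion mice 1 to 4 and in sham mice 1 and 3, and a Ct of 31.7 in sham mouse 2 and 33.8 in sham mouse 4. The minus delta Ct of those sham mice was -9.25 and -15.83, a spread of 6.58 log2 units between 2 samples of a group. Detection in 0 of 4 against 2 of 4 mice gave a Fisher's exact p of 0.429 (adjusted p = 1), and this pattern was seen in 21 of 750 assays (2.8%). Only the 133 assays detected in some but not all samples could show it. Neither sham mouse 1 nor sham mouse 3 gave a miR-15a Ct although both gave a miR-15b Ct below 30, and sham mouse 2 gave miR-15a without miR-15b. The authors' deposited table gives no fold for miR-15a.

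miR-16, the member with copies in both of those clusters, had Ct 30.3, 31.5, 29.4 and 33.7 in ischemia/reperfusion mice 1 to 4, against 28.6, 29.9, 28.0 and 26.4 in sham mice 1 to 4. On the minus delta Ct scale these were -9.24, -9.16, -8.86 and -12.06 after ischemia/reperfusion, against -7.98, -7.44, -9.00 and -8.49 in sham mice. All 4 ischemia/reperfusion mice lay below the sham mean, but the groups overlapped, because ischemia/reperfusion mouse 3 was above sham mouse 3. Across the 72 tested miRNAs the groups did not overlap for 5 (6.94%), and no member was among them.

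The log2 difference of miR-16 was -1.60 ± 0.82 (SE, n = 4 per group; 95% interval -3.47 to 0.26), a fold of 0.329. Its limma p was 0.0835 unadjusted and 0.401 adjusted, ranking 15 of 72 by p. An exact two-sided permutation test gave p = 0.0571, and 4 against 4 mice cannot reach a p below 0.0286. Ischemia/reperfusion mouse 4 carried much of the difference: without it the log2 difference was -0.86 ± 0.63, with a limma adjusted p of 0.577.

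miR-195, which is known for rising in the newborn mouse heart as muscle cells leave the cell cycle, came up before miR-16 in 7 of 8 mice and before miR-497 in 8 of 8. Its Ct was 28.1, 28.9, 31.1 and 29.0 in ischemia/reperfusion mice 1 to 4, against 26.1, 29.0, 26.8 and 24.7 in sham mice 1 to 4. The minus delta Ct was -7.10, -6.53, -10.55 and -7.32 after ischemia/reperfusion, against -5.44, -6.52, -7.78 and -6.78 in sham mice. Ischemia/reperfusion mouse 3 was the lowest of all samples, and the other 3 lay within the sham range.

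The log2 difference of miR-195 was -1.24 ± 0.97 (SE, n = 4 per group; 95% interval -3.44 to 0.95), a fold of 0.422, with a limma adjusted p of 0.552. Its exact two-sided permutation p was 0.314. Without ischemia/reperfusion mouse 3 the log2 difference was -0.35 ± 0.70, with a limma adjusted p of 0.830.

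miR-497, transcribed next to miR-195, had Ct 30.8, 32.2, 31.9 and 34.1 in ischemia/reperfusion mice 1 to 4, against 29.7, 33.8, 34.0 and 27.3 in sham mice 1 to 4. The minus delta Ct was -9.77, -9.79, -11.34 and -12.44 after ischemia/reperfusion, against -9.05, -11.33, -15.05 and -9.33 in sham mice. The sham values enclosed all 4 ischemia/reperfusion values, with sham mouse 3 at the bottom. The sham SD of 2.77 was larger than that of 93.1% of the tested miRNAs, whose median sham SD was 1.27.

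The log2 difference of miR-497 was 0.35 ± 1.35 (SE, n = 4 per group; 95% interval -2.71 to 3.41), a fold of 1.28, with a limma adjusted p of 0.854. Its direction was not stable: without sham mouse 3 it was -0.93 ± 0.96, and without ischemia/reperfusion mouse 1 it was -0.0012 ± 1.48. It also turned with the reference, at -0.33 ± 1.26 against snoRNA202 and -1.04 ± 1.57 without normalization. miR-16 and miR-195 had the opposite balance of spread to miR-497. Their SDs were 1.497 and 1.81 after ischemia/reperfusion and 0.672 and 0.962 in sham mice. In each group with the larger SD, 1 mouse lay far from the rest. It was ischemia/reperfusion mouse 4 for miR-16 (-12.06), ischemia/reperfusion mouse 3 for miR-195 (-10.55) and sham mouse 3 for miR-497 (-15.05). The difference in spread was not tested. The median SD of the tested miRNAs was 1.04 after ischemia/reperfusion.

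**Figure D2:**
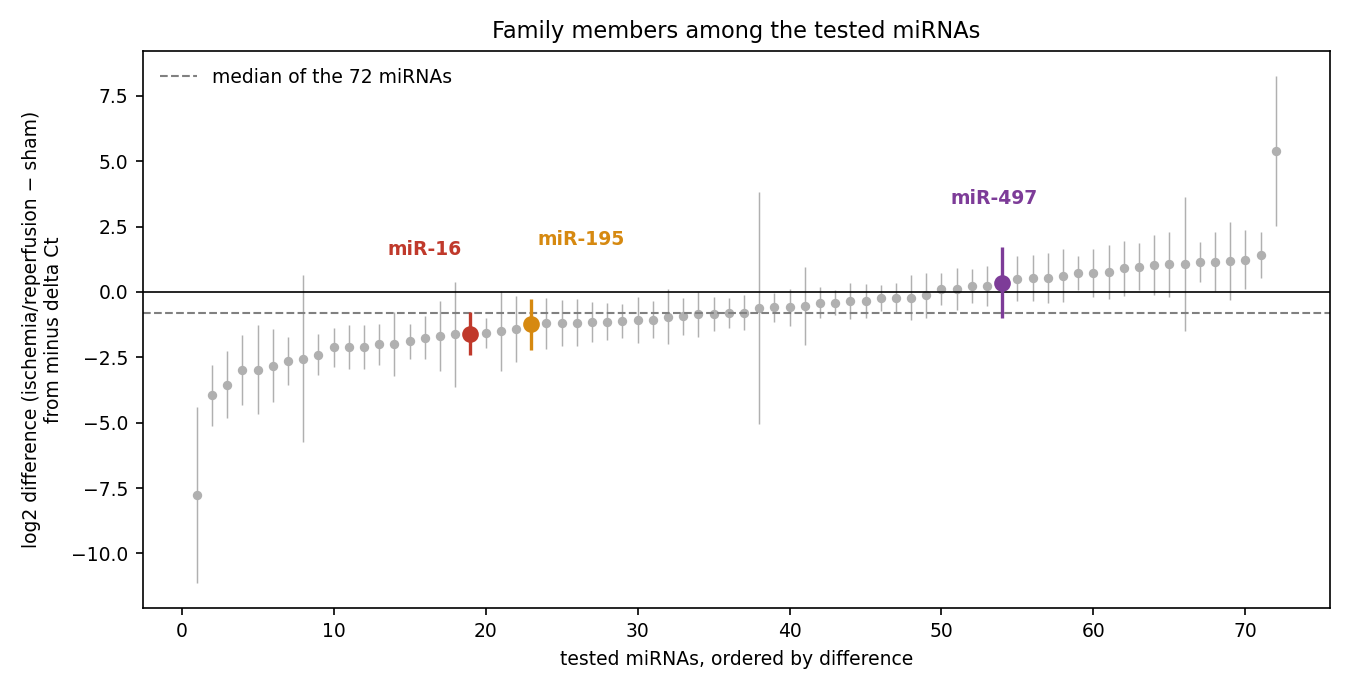
Log2 difference in minus delta Ct (ischemia/reperfusion minus sham, vertical axis) of the 72 tested miRNAs, ordered from lowest to highest, with SE bars; the dashed line is their median of -0.80. miR-16 at -1.60 and miR-195 at -1.24 lie on the lower side of the median and miR-497 at 0.35 on the upper side, all among many miRNAs with differences of the same size.

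The deposited reference itself was 1.39 cycles later after ischemia/reperfusion (exact permutation p = 0.286, adjusted p = 0.381 over 4 values), so the raw Ct was compared as well. The mean Ct of miR-16 was 31.2 ± 1.89 after ischemia/reperfusion and 28.2 ± 1.44 in sham mice (SD, n = 4 each), a difference of 2.99 cycles (exact permutation p = 0.0571, adjusted p = 0.171). That of miR-195 was 29.3 ± 1.26 and 26.6 ± 1.77, a difference of 2.64 cycles (exact permutation p = 0.0857, adjusted p = 0.171). That of miR-497 was 32.2 ± 1.39 and 31.2 ± 3.29, a difference of 1.04 cycles (exact permutation p = 0.600, adjusted p = 0.600).

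A change of reference shifts the 3 members by the same amount, so their order is fixed and only their distance from 0 can change. Without normalization the log2 difference was -2.99 ± 1.14 for miR-16 and -2.64 ± 1.07 for miR-195, where limma gave unadjusted p of 0.0273 and 0.0361 (0.123 and 0.141 when adjusted). In that setting 21 of 72 miRNAs (29.2%) had an unadjusted p under 0.05, 65 (90.3%) had a lower mean, and the median of all tested miRNAs was -1.93. A small nucleolar RNA, snoRNA202, served as another reference, from a well taken to lie on the other card than the members. Against it miR-16 was at -2.29 ± 0.80 and miR-195 at -1.93 ± 0.93, where limma's unadjusted p was 0.0197 and 0.0690. There the median of all tested miRNAs was -1.22, 56 of 72 (77.8%) had a lower mean and 20 (27.8%) an unadjusted p under 0.05. Against the average of every miRNA detected in all 8 mice they were at -0.95 ± 0.73 and -0.59 ± 0.79. There the median was -0.31, 41 of 72 (56.9%) had a lower mean and 3 (4.17%) an unadjusted p under 0.05.

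**Figure D3:**
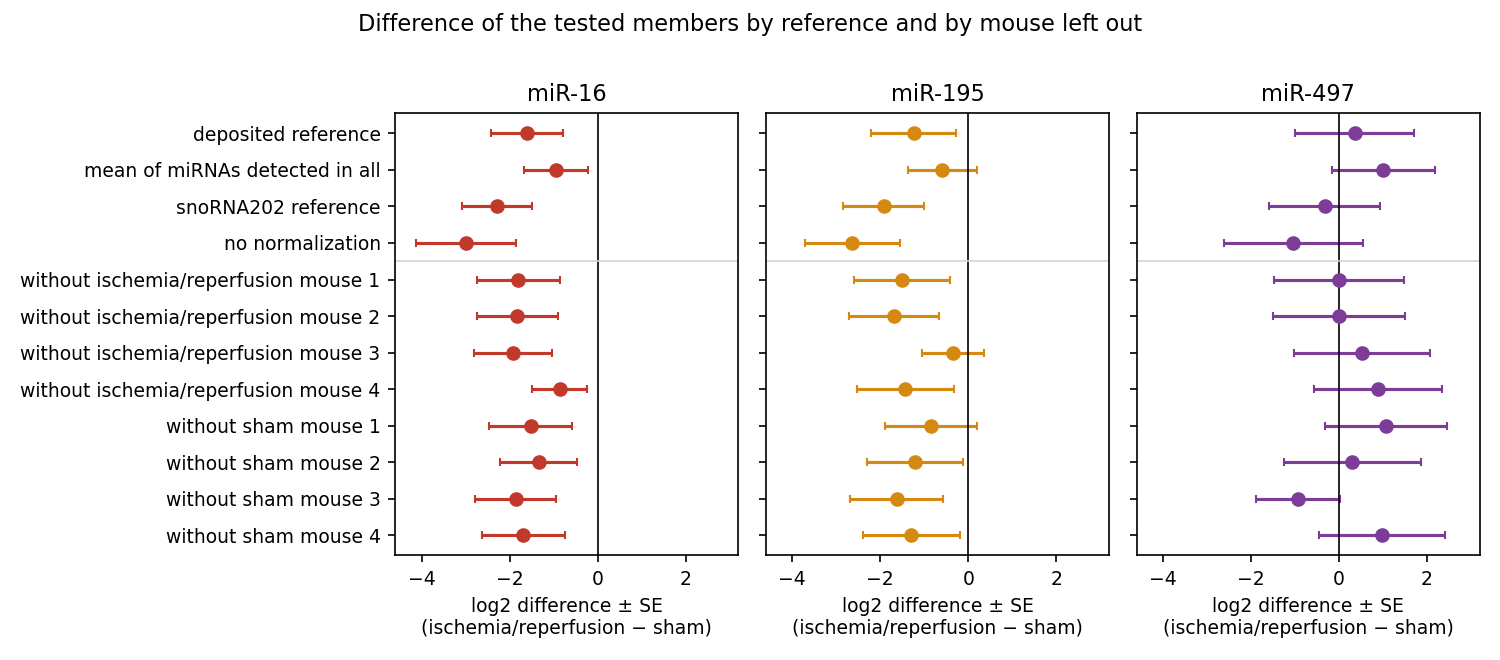
Log2 difference ± SE (ischemia/reperfusion minus sham, horizontal axis) of miR-16, miR-195 and miR-497 under 4 references (upper rows) and with each mouse left out (lower rows). miR-16 and miR-195 stay below 0 in every row, from -2.99 to -0.86 and from -2.64 to -0.35, while miR-497 lies on both sides of 0.

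Because all 5 assays shared the same reference value in each sample, and so were taken to lie on the same card of the 2 the delta Ct values show, a Ct difference between members of the same sample does not depend on the reference. Ct differences between assays also hold differences in assay efficiency, so they are compared between samples and not read as RNA ratios. The Ct of miR-195 minus that of miR-16 was -2.14, -2.63, 1.68 and -4.74 in ischemia/reperfusion mice 1 to 4, against -2.55, -0.91, -1.22 and -1.71 in sham mice 1 to 4. The difference between these near-identical sequences was of similar size in the 4 sham mice, while ischemia/reperfusion mice 3 and 4 stood at opposite ends. Ischemia/reperfusion mouse 3 was the only sample in which miR-16 had the lower Ct. The group means were -1.96 ± 2.68 and -1.60 ± 0.712 (SD, n = 4 each), and their difference of -0.36 did not pass (exact permutation p = 0.743, adjusted p = 0.743 over 2 pairs). Without ischemia/reperfusion mouse 4 the difference turned to 0.57.

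The cluster partners miR-497 and miR-195 were also uneven. The Ct of miR-497 minus that of miR-195 was 2.67, 3.27, 0.79 and 5.12 in ischemia/reperfusion mice 1 to 4, against 3.61, 4.81, 7.27 and 2.55 in sham mice 1 to 4. The means of 2.96 ± 1.78 and 4.56 ± 2.03 differed by -1.60 cycles (exact permutation p = 0.314, adjusted p = 0.629). miR-497 came up later than miR-195 in 8 of 8 mice, and later than miR-16 in 8 of 8, by 1.00 ± 0.984 cycles after ischemia/reperfusion and 2.96 ± 2.48 in sham mice (SD, n = 4 each). By mean Ct the order in both groups was therefore miR-195, miR-16, miR-497. After ischemia/reperfusion the gap between miR-195 and miR-16 was within its SD, and the gap between miR-16 and miR-497 was about as large as its SD. In sham mice both gaps exceeded their SD.

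In the Smc4 pair, the Ct of miR-15b minus that of miR-16 was 4.81 in ischemia/reperfusion mouse 3, against 0.84, -1.62 and -0.31 in sham mice 1, 3 and 4. In samples with no miR-15b Ct, taking Ct 35 as its lowest possible value gives lower bounds of 4.74, 3.46 and 1.26 in ischemia/reperfusion mice 1, 2 and 4, and 5.12 in sham mouse 2. Under that reading the 4 injured mice and sham mouse 2 all lay above the 3 sham mice with a measured value. Except in ischemia/reperfusion mouse 3, those higher values come from the Ct 35 put in, so nothing further is read from this order. A well that failed for another reason would have no such bound, and the pair had too few values for a test. In the Dleu2 pair, miR-15a came up 1.81 cycles after miR-16 in sham mouse 2 and 7.34 cycles after it in sham mouse 4.

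**Figure D4:**
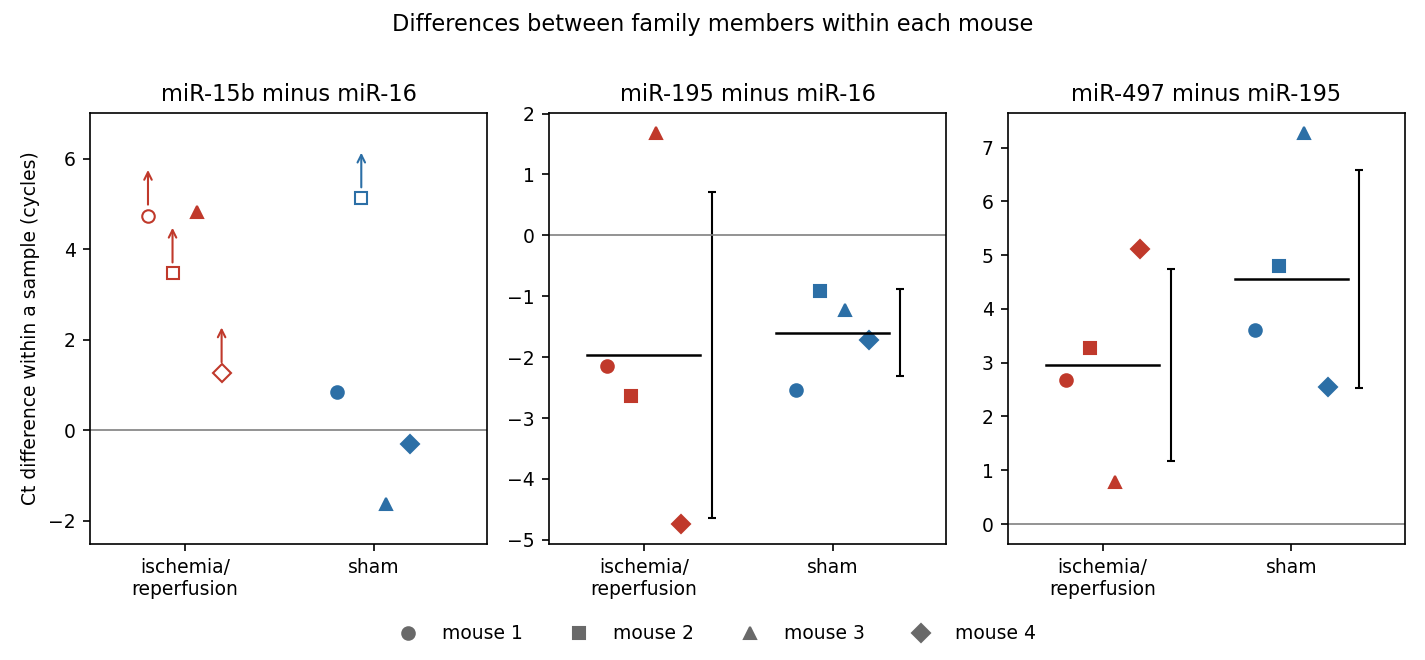
Ct difference within a sample (cycles) between members of the family, ischemia/reperfusion in red on the left and sham in blue on the right; bars are means and SD of 4 mice, and open symbols are lower bounds with miR-15b at Ct 35. miR-15b minus miR-16 is measured at 4.81 in ischemia/reperfusion mouse 3, against -1.62 to 0.84 in 3 sham mice, and sham mouse 2 has only a lower bound.

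Ranked by Ct among the detected miRNAs of each sample, miR-195 stood between 34 of 98 and 58 of 91 after ischemia/reperfusion. In sham mice 1 to 4 it stood at 27 of 127, 32 of 75, 48 of 142 and 34 of 163. miR-16 ranked between 43 of 91 and 77 of 88 after ischemia/reperfusion, and at 59 of 127, 44 of 75, 64 of 142 and 58 of 163 in sham mice 1 to 4. miR-15b ranked 87 of 91 in its only ischemia/reperfusion mouse, against 74 of 127, 40 of 142 and 52 of 163 in sham mice 1, 3 and 4. In sham mice 3 and 4 it came up before miR-16, so in those samples it was no marginal signal.

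The miRNAs with the profile most like each member over the 8 samples were found by the root mean square difference of minus delta Ct after centring each profile, among 53 other miRNAs detected in all samples. These profiles share the reference of each sample. For miR-16 the nearest were miR-126-3p (0.991 log2 units), miR-30b (1.00) and miR-191 (1.01), and for miR-195 they were miR-218 (0.894), miR-24 (0.956) and hsa-miR-30a-3p (1.01). For miR-497 they were let-7b (1.52), let-7c (1.65) and miR-30c (1.66). The family members were not each other's nearest profiles: miR-195 ranked 29 of 53 from miR-16 at 1.71 log2 units, beside a median of 1.62. The pair of cluster partners miR-497 and miR-195 lay 1.84 log2 units apart. Among the distances from miR-195, whose median was 1.53, that ranked 37 of 53, and among those from miR-497, whose median was 2.18, it ranked 11 of 53, with miR-16 at 15 of 53 (1.91).

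The relatives around miR-103 and miR-107, which have a similar 5′ end, gave almost no signal. Of 5 assays for miR-103, miR-107, miR-322 and miR-503, 1 was detected in 1 sample, miR-322 at Ct 34.0 in sham mouse 3. The same assay had Ct 35.9 in sham mouse 4, where miR-103 had Ct 35.1, and every other well of the 5 had no Ct. None was tested. miR-322 carries the family seed, while miR-103 and miR-107 carry GCAGCAU at bases 2 to 8 and miR-503 carries AGCAGCG. The 3 passenger-arm assays, for miR-15a, miR-15b and miR-16, gave no Ct at all.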

How the data were processed

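Per the labels' protocols, sorted CD34+/CD105- renal artery cells gave total RNA (mirVana extraction), whose cDNA was read by real-time PCR with FAM label. The authors deposited Ct values, delta Ct values on a log2 scale (Ct minus 1 reference value per sample and card, as the values show), and fold changes, a linear ratio of ischemia/reperfusion over sham, per the file headers. No source used here names the reference RNA, software or card type. Delta Ct values without a Ct (13 wells, none of a member) were left missing.

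Repeated wells were averaged, control assays were not tested, and wells at Ct 35 or later were missing. Groups were compared with limma 3.58.1 (lmFit, eBayes) in R 4.3.3, two-sided, over all 72 tested miRNAs with Benjamini-Hochberg adjustment. The fit was tested on simulated data. Single values were compared with exact permutation tests over 70 assignments (scipy 1.17.1) and detection with Fisher's exact test. The text names the 5 members, the relatives around miR-107, passenger arms, marker lists, controls, and the 3 nearest profiles of each member detected in all samples. The members and lists were chosen with earlier results of these data known. Sequences and positions come from RefSeq (GRCm38.p6), where all 5 assays matched by name, miR-195 and miR-497 through gene synonyms. Alternatives were other references, detection limits, filters, treatments of missing wells, moderation, a block by mouse number and leaving out each mouse. The snoRNA202 reference was its 1 well with a Ct in every sample. It was used for both cards, and its catalogue number places it on the card without the members. Each value is limited by the spread between mice.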

Additional observations from a re-analysis of the deposited data

Results flagged for a closer look

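miR-16 in ischemia/reperfusion mouse 4, at -12.06 on the minus delta Ct scale against -9.24 to -8.86 in the other 3 mice of its group, stood apart from them. Its gap to the nearest value was 0.882 of the range of the group, above Dixon's 95% critical value for 4 samples. It was the only 1 of 16 groups of member values looked at that passed, and chance alone flags about 1 in 20. On the raw Ct scale the same mouse did not stand apart, with a ratio of 0.506.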

How the results depend on the processing

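miR-16 and miR-195 had lower means after ischemia/reperfusion in all 21 alternatives each, without passing the threshold in any (adjusted p 0.109 to 0.692 and 0.141 to 0.830). Many of these could not change the direction, because both members were detected in all 8 samples. The difference stayed at -1.60 and -1.24 with any Ct, Ct 35 or 40 for missing wells, other filters, other moderation and the block. Only other references, leaving out mice and, for miR-16, the Ct limit of 32 moved it. When each mouse was left out in turn, the log2 difference ranged from -1.93 to -0.86 for miR-16, from -1.69 to -0.35 for miR-195, and from -0.93 to 1.07 for miR-497. For miR-15b no value exists without ischemia/reperfusion mouse 3, its only detected well in that group, and without sham mice 1, 3 or 4 it ranged, with no test, from -5.89 to -5.18. miR-497 turned to -1.04 without normalization, -0.33 against snoRNA202, -0.0012 without ischemia/reperfusion mouse 1 and -0.93 without sham mouse 3, and with the Ct limit at 32 it was not tested. The miR-15b difference of -5.55 between detected wells became -4.51 against the mean of miRNAs detected in all samples, -6.88 without normalization, -4.17 with wells not detected at Ct 35 and -6.67 with missing wells at Ct 40. miR-15a had no value in any setting.

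The Ct difference of miR-497 ranged from -0.27 (without sham mouse 4) to 1.99, and the within-sample difference of miR-195 minus miR-16 from -1.57 to 0.57 (without ischemia/reperfusion mouse 4). Of all tested miRNAs, 0 passed with the settings reported, 0 to 1 when a mouse was left out, 1 with any Ct accepted, 1 with Ct 35 and 1 with Ct 40 for missing wells, none of them a member. With Ct 35 and without sham mouse 2, 6 passed, of which 1 was a member, miR-15b. Its entry through the sham group and leaving out the sham mouse that lacked it both favoured a lower value, so its call is not read. Fisher's exact test of detection gave 0 members at each Ct limit. Beyond those settings' own construction, the cause was not tested.

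With mouse number as a replicate block the log2 differences were -1.60 ± 0.76 for miR-16, -1.24 ± 0.67 for miR-195 and 0.35 ± 1.23 for miR-497, and 0 miRNAs passed. Deviations of same-numbered mice correlated at -0.38, -0.15, 0.020 and -0.25 over 54 miRNAs, and those of differently numbered mice at -0.26 to 0.55. No pairing by number was seen, though so few values cannot exclude one.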
